A study of Mus musculus with 47 samples.

Results

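The genes described here are 39 genes of the ATF4 pathway and the unfolded protein response, chosen by name. They fall into 3 lists: ATF4 with transcription factors and effectors of its pathway, genes of amino acid synthesis and uptake, and chaperone and quality control genes of the endoplasmic reticulum (ER). A gene was measured by a probe set annotated with its symbol alone, and where there were several, by the one with the highest mean signal. 38 of the 39 had such a probe set, out of 12393 genes on the array. Pycr1 (a proline synthesis enzyme) had none, and Slc7a1 (a cationic amino acid transporter) stayed below the low-signal limit of log2 4.35 in all 16 groups. The other 37 are among the 8675 genes tested: 12 of the ATF4 list, 10 of the amino acid list and 15 of the chaperone list.

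RNA was measured on 47 arrays, 1 per sample, in the murine epidermal cell line JB6, a model of tumour promotion whose cells are labelled here as progenitors. The study asked how annexin A2, encoded by Anxa2, bears on radiation-sensitive transcription. 1 stable line carried an shRNA against AnxA2 and the other the vector only; both were made by retrovirus and selected with puromycin, so each genotype is 1 line. Cells of each line were left untreated and collected at 2 or 24 h, or given 10 or 100 cGy of X-rays and collected at 2, 6 or 24 h. Each of these 16 groups had 3 arrays; only the vector group at 24 h after 10 cGy had 2 (replicates 1 and 3). The labels do not say that replicates came from separate cultures, so p-values measure the spread between these samples, which may be technical. There was no untreated group at 6 h, so at 6 h irradiation and time cannot be told apart.

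ATF4 is a transcription factor whose protein is made when the initiation factor eIF2 is phosphorylated, as happens when amino acids run short or unfolded protein builds up in the ER. It binds CCAAT enhancer binding protein and ATF response elements, with partners of the C/EBP family, and switches on genes for amino acid synthesis, amino acid uptake and tRNA charging. Unfolded protein in the ER also activates ATF6 and, through splicing of its RNA, XBP1; these act through ER stress response elements (ERSE) upstream of chaperone genes. Because ATF4 and XBP1 are controlled in large part at translation and splicing, their RNA levels on an array do not measure their activity.

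The promoters of the listed genes differ in the motifs they hold. The 7 stretches shown were picked because they hold a motif, from genes named in the results that follow. The windows, from RefSeq (GRCm38.p6), run from 250 bases before to 50 after each gene start, and 35 of the 39 genes had one. The motifs searched on both strands were TGATGNAA (the core of the C/EBP-ATF element), ERSE (CCAAT, 9 bases of any kind, CCACG), the shorter ERSE-II, and TGACGTGG. Capitals mark the match; in 4 of the 5 stretches with TGATGNAA it lies on the opposite strand.
Hspa5 (chr2:34772005-34772063, plus strand, -85 to -27 from the start): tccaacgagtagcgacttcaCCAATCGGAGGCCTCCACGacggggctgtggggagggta
Creld2 (chr15:88819500-88819558, plus strand, -146 to -88): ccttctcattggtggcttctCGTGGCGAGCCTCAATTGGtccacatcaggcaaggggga
Herpud1 (chr8:94386297-94386407, plus strand, -132 to -22): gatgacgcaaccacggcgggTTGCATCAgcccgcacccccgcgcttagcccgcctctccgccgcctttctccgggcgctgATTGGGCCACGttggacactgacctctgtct
Chac1 (chr2:119351029-119351076, plus strand, -213 to -166): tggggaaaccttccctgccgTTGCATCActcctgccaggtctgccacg
Nupr1 (chr7:126625553-126625600, minus strand, -130 to -83): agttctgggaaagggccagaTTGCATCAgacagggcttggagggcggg
Vldlr (chr19:27216800-27216847, plus strand, -220 to -173): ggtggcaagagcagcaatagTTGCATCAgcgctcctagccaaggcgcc
Asns (chr6:7693210-7693252, minus strand, -43 to -1): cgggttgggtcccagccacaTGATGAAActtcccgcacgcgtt

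ERSE was found upstream of 7 of 14 chaperone genes with a window (Hspa5, Hsp90b1, Pdia6, Calr, Dnajc3, Syvn1 and Creld2), against 0.137% of 27025 genes. It was found in 0 of 11 windows of the ATF4 list and 0 of 10 of the amino acid list. TGATGNAA was found in 4 of 11 windows of the ATF4 list (Trib3, Chac1, Nupr1 and Vldlr), 2 of 10 of the amino acid list (Asns and Pycr1) and 1 of 14 of the chaperone list (Herpud1), against 4.51% of genes. The form TGATGCAA, as in Chac1, Nupr1, Vldlr and Herpud1, was in 1.03% of genes, and TGATGAAA, as in Asns, in 1.15%. Herpud1 held ERSE-II as well (0.0444% of genes), so it alone among the members had a match to motifs of both kinds. TGACGTGG was in 0 members and 0.714% of genes. Cth, Psph, Slc7a5, Ddit3 and Dnajb9, which are among the genes with larger changes below, had no match or no window. A match is a description of letters, and no match says only that these letters are not in the window.

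3 of the 47 arrays stood apart from their groups: replicate 3 of the untreated, 10 cGy and 100 cGy vector groups at 2 h. On the second principal component of all genes these 3 arrays lay at -2.37, 1.75 and 0.57, against -19.56 to -16.91 for their 6 group mates. In the comparisons that use them, counts of called members are given with and without them, as are the values of genes named there whose call ends or whose difference moves by more than 1.5 times. In the other comparisons leaving them out changes only the shared error. Anxa2 group means lay between 10.70 and 11.16 in shRNA cells and 12.34 and 12.61 in vector cells, so every shRNA group was below every vector group. Of cell type markers, 8 of 10 mesenchymal genes were above the low-signal limit (list mean 9.48 to 9.82 over vector arrays, 9.48 to 9.69 over shRNA arrays). Pdgfra, at 9.53 in vector and 6.98 in shRNA cells, differed. Of 10 epithelial markers only 4 were above the limit, and Cdh1, Epcam, Krt7, Krt18, Krt19 and Dsp were below. The list mean was 3.64 to 3.96 over vector and 4.01 to 4.38 over shRNA arrays. Krt14 made up most of that gap (3.84 in vector and 6.57 in shRNA cells), with Pkp1 (5.14 and 5.76), while Krt5 (4.56 and 4.69) and Krt8 (5.03 and 5.05) were nearly level. Of 9 leukocyte markers on the array 4 were above the limit, with Ptprc, Itgam and Tyrobp below, and list means overlapped between lines. These marker differences stand beside all line differences given here, and their part in them was not tested. These are bulk samples, in which fewer cells of a kind and less RNA per cell cannot be told apart.

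On those 3 arrays, ATF4 and its effectors were low while most chaperone genes were not. Chac1, a glutathione-degrading enzyme and ATF4 target, read 9.23 and 9.29 on replicates 1 and 2 of untreated vector cells at 2 h and 6.14 on replicate 3. After 10 cGy it read 9.09, 9.13 and 5.88, and after 100 cGy 9.08, 8.97 and 5.89. In each of the 3 groups, then, replicate 3 was lower by a log2 difference of more than 3, while the 24 arrays of shRNA cells stayed between 7.60 and 8.24.

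Trib3, a pseudokinase that restrains ATF4, was lower on the 3 arrays than the mean of their group mates by log2 -2.31 (untreated), -1.72 (10 cGy) and -2.16 (100 cGy). The shift was -2.21, -1.45 and -1.74 for Herpud1, a membrane protein of ER-associated degradation. It was -1.25, -0.80 and -0.86 for Atf4 itself. Over the ATF4 list the median shift was -0.93, -0.39 and -0.66, and over the amino acid list -0.81, -0.49 and -0.54. The chaperone list had median shifts of -0.06, 0.03 and -0.03, close to the 0.02, 0.04 and 0.03 of all tested genes. 9, 5 and 7 of 12 ATF4 list genes were lower by more than 0.5, against 4, 2 and 2 of 15 chaperone genes and 6.67%, 4.97% and 3.29% of all tested genes. Higher by more than 0.5 were 0 genes of the ATF4 and amino acid lists, and 8.25%, 8.67% and 3.29% of all tested genes, so the shift of these arrays was wide and ran both ways. The 3' minus 5' Gapdh difference, a sign of RNA integrity, was 0.594 on the untreated array of the 3 (the second highest of 47). It was 0.077 on the 10 cGy array and -9.59e-04 on the 100 cGy array, and its part in the shift was not tested. The highest of all, 1.06, was on replicate 1 of 10 cGy shRNA cells at 6 h, an array used in the 6 h comparisons of that line.

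These arrays also widened the error of every comparison for the genes concerned, since a single spread per gene is shared by all groups. In the comparison of lines at 2 h without irradiation, the standard error of Chac1 was 0.61 with them and 0.11 without, and that of Trib3 0.40 and 0.09. A missed call for these genes therefore says little, and the value without the 3 arrays is in many cases printed beside it. The arrays were chosen because an earlier look at these data had shown them, and the lists were chosen with earlier results known. The shifts of the lists on these arrays are therefore a description and not a test. In comparisons that use them, values of these genes without them depend on that choice, and their p-values are not independent tests. In the other comparisons the differences stay the same, but the narrower error depends on the same choice. P-values from the fit without the 3 arrays are therefore not independent tests there either.

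**Figure D1:**
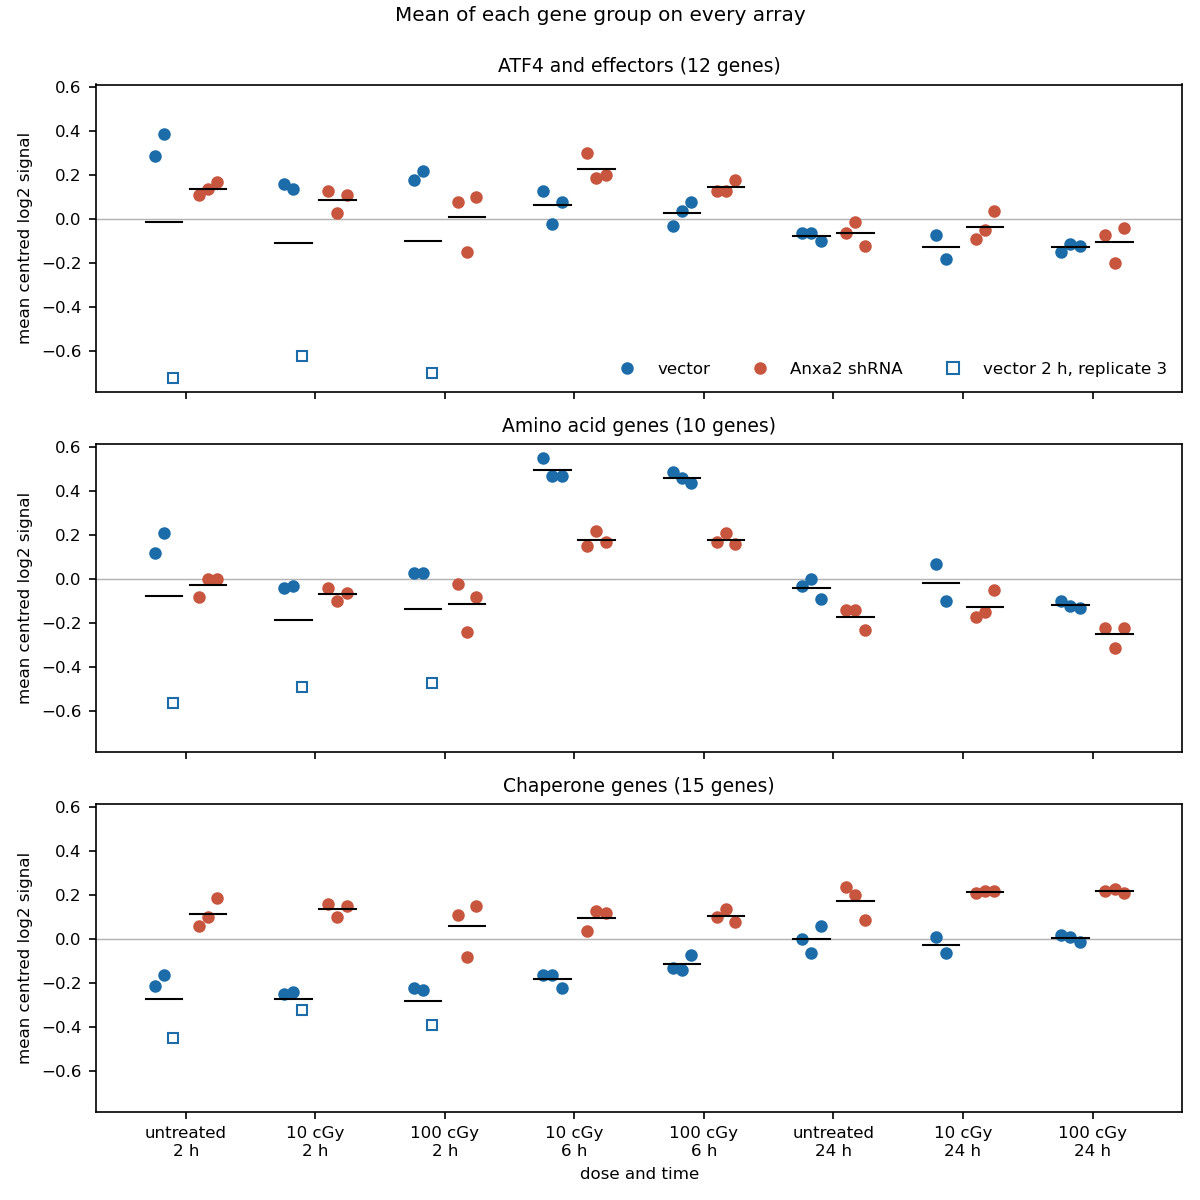
Mean log2 signal of the ATF4 list (12 genes), the amino acid list (10 genes) and the chaperone list (15 genes) on each array, after subtracting each gene's mean over all arrays (vertical axis), by dose and time (horizontal axis) and line (colour); black bars are group means and open squares the 3 vector arrays that stand apart. In both lines the amino acid list is highest at 6 h, at 0.47 to 0.50 in vector and 0.18 in shRNA groups, and the chaperone list is higher in shRNA than in vector cells in every condition.

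The 3 lists followed different courses. In vector cells the amino acid list, as the mean of its genes relative to their own means over all arrays, stood at -0.08 ± 0.42 (SD, n = 3) without irradiation at 2 h and -0.04 ± 0.05 at 24 h. At 6 h it stood at 0.50 ± 0.04 after 10 cGy and 0.47 ± 0.02 after 100 cGy, with the lowest array at 0.44. The highest array of any other vector group read 0.21. In shRNA cells it moved the same way over a smaller range, from -0.07 ± 0.03 at 2 h to 0.18 ± 0.04 at 6 h and -0.13 ± 0.06 at 24 h after 10 cGy.

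The chaperone list instead separated the lines by its group means. These lay between -0.28 and 0.01 in vector cells and between 0.06 and 0.22 in shRNA cells. Single arrays of different conditions overlapped. The lowest shRNA array read -0.08 (100 cGy at 2 h, replicate 2) and the highest vector array 0.06 (untreated at 24 h, replicate 3). The mean of the ATF4 and amino acid genes less that of the chaperone genes was 0.44 ± 0.07 in vector cells at 6 h after 10 cGy and 0.34 ± 0.03 after 100 cGy. In shRNA cells it was 0.11 ± 0.07 and 0.06 ± 0.03. A similar gap was present in vector cells at 2 h on replicates 1 and 2. There it was 0.42 and 0.46 (untreated), 0.32 and 0.30 (10 cGy) and 0.33 and 0.36 (100 cGy). On replicate 3, the arrays that stand apart, it was -0.20, -0.24 and -0.20. At 24 h it was at or below -0.05 in every group of vector cells and between -0.39 and -0.29 in shRNA cells. The lines and times were compared on single genes, since these lists were chosen with results in view and a score over them has no test here.

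**Figure D2:**
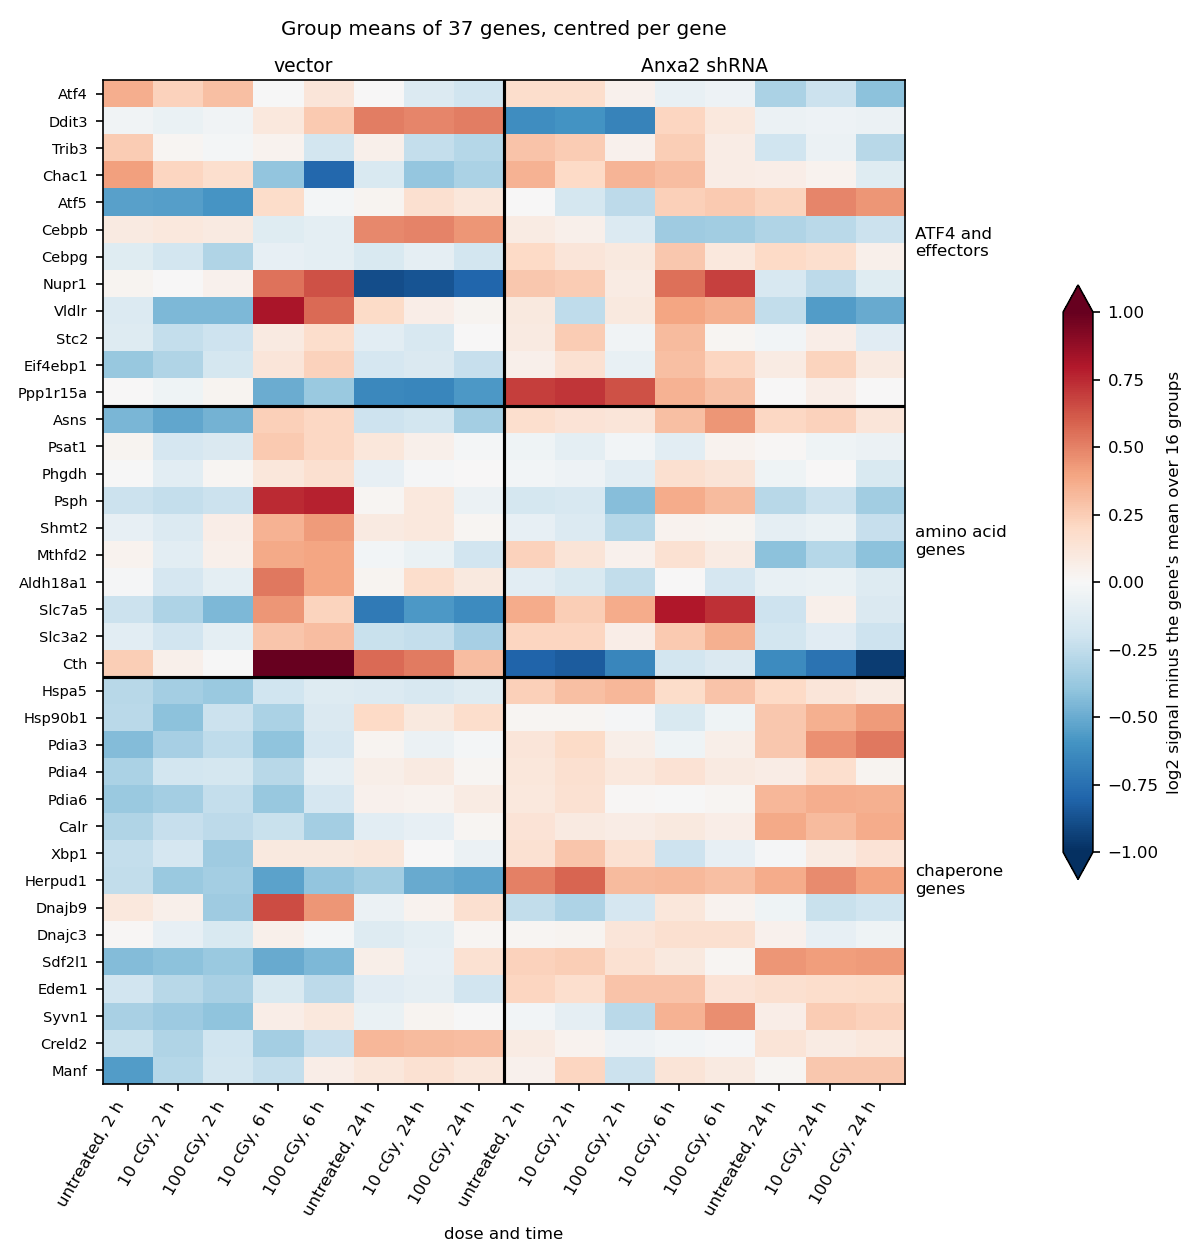
Group mean log2 signal of the 37 tested members (vertical axis, by list) in the 16 groups (horizontal axis, by line, dose and time), each gene relative to its mean over the 16 groups; the colour scale runs from -1 (blue) to 1 (red). Averaged over the doses, all 10 amino acid genes are highest at 6 h among irradiated cells in both lines, and most chaperone genes are higher across the shRNA columns.

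Between 2 and 6 h after irradiation in vector cells, genes of amino acid synthesis and uptake rose together. The 6 arrays at 6 h (both doses) were compared with the 6 at 2 h. They were counted as separate samples, although replicate 3 stood apart in both dose groups at 2 h. 9 of 10 amino acid genes rose and 0 fell, with a median log2 difference of 0.51, against a median of -0.02 over all tested genes. Over all members 17 of 37 rose and 1 fell, where 8.90% of all tested genes rose and 7.82% fell. Without the 3 arrays, 8 of the 10 amino acid genes rose, with a median of 0.38, and over all members 14 rose and 6 fell (11.5% and 8.20% of all tested genes).

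The largest rise was in Cth, cystathionine gamma-lyase, which makes cysteine from cystathionine (chr3:157894248-157925081). It read 9.37, 9.39 and 9.33 at 6 h after 10 cGy and 9.28, 9.21 and 9.40 after 100 cGy. At 2 h it read 7.92, 8.03 and 7.33 after 10 cGy and 7.88, 8.03 and 7.22 after 100 cGy. Every 6 h array was above every other vector array, including untreated cells at 2 h (8.41, 8.26 and 7.20) and at 24 h (8.29, 8.18 and 8.36). The rise was log2 1.60 ± 0.13 (SE), or 3.03-fold (limma, Benjamini-Hochberg adjusted p = 6.47e-11), and 1.37 without the 3 arrays.

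Psph, the phosphatase that completes serine synthesis, read 9.41 to 9.64 at 6 h and 8.20 to 8.79 at 2 h, with no overlap. It rose by log2 0.99 ± 0.14 (adjusted p = 4.43e-06; 0.83 without the 3 arrays). Asns, asparagine synthetase, read 11.27 to 11.43 at 6 h against 10.24 to 10.84 at 2 h and rose by 0.72 ± 0.11 (adjusted p = 4.51e-06; 0.55 without the 3 arrays). Slc7a5, the LAT1 transporter of large neutral amino acids, rose by 0.71 ± 0.13 (adjusted p = 1.36e-04; 0.49 without the 3 arrays), and its partner chain Slc3a2 rose by 0.43 (0.22 without the 3 arrays). Aldh18a1, which starts proline synthesis, rose by 0.59 (0.46 without the 3 arrays). The serine pathway and one-carbon enzymes Psat1 and Shmt2 rose by 0.39 and 0.42 (0.29 and 0.28 without the 3 arrays). Mthfd2, the mitochondrial folate enzyme, rose by 0.42, but by 0.19 (adjusted p = 0.102) without the 3 arrays, and its call was lost without replicate 3 at 2 h of 10 cGy (0.32) or of 100 cGy (0.29) alone. Phgdh, the first enzyme of serine synthesis, differed by 0.18 (adjusted p = 0.0579).

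The doses gave nearly the same course. The 6 h minus 2 h difference of Cth in vector cells was log2 1.61 after 10 cGy and 1.59 after 100 cGy, that of Psph 0.98 and 0.99, and that of Asns 0.76 and 0.68. Since both doses moved alike and no untreated cells were measured at 6 h, an effect of irradiation and one of time cannot be told apart in these rises.

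Among the ATF4 list in vector cells, 5 of 12 genes rose and 1 fell between 2 and 6 h (median 0.19). In the fit without the 3 arrays, the balance turned: 4 rose and 5 fell (median 0.07), beside the 11.5% and 8.20% of all tested genes given above. Vldlr, a lipoprotein receptor and ATF4 target, read 7.76 to 8.33 at 6 h and 6.25 to 7.46 at 2 h, and rose by log2 1.13 ± 0.16 (adjusted p = 2.43e-06; 0.81 without the 3 arrays). Atf5, a sister factor of ATF4, rose by 0.65 ± 0.13 (adjusted p = 4.69e-04; 0.64 without the 3 arrays). Nupr1, a stress-induced chromatin cofactor, rose by 0.57 ± 0.15 (adjusted p = 0.00517), or 0.36 without the 3 arrays. Eif4ebp1, a brake on cap-dependent translation, rose by 0.42 (0.36 without the 3 arrays). Cebpb fell by 0.20 (adjusted p = 0.0297), a call that was lost (-0.20 to -0.17) without replicate 1 or 2 at 2 h or 2 at 6 h of 10 cGy, or replicate 2 at 2 h or 1 or 3 at 6 h of 100 cGy. Stc2, a secreted glycoprotein, rose by 0.36 (without the 3 arrays 0.25, adjusted p = 0.0692), and another probe set of the gene gave -0.16.

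Other members of the ATF4 list did not follow. Atf4 (chr15:80255184-80257545) read 11.22 to 11.46 at 6 h, and at 2 h 11.80 to 11.91 on replicates 1 and 2 and 11.02 and 11.04 on replicate 3 of each dose. The difference was -0.21 ± 0.15 (adjusted p = 0.367) over all arrays. Without the 3 arrays Atf4 fell by 0.48 ± 0.07 (adjusted p = 6.94e-07), Chac1 fell by 1.84, Trib3 fell by 0.73 and Ppp1r15a, which directs the dephosphorylation of eIF2, fell by 0.79; with them, none of these passed the threshold. Ddit3, the CHOP factor, differed by 0.23 (adjusted p = 0.158), and by 0.12 (adjusted p = 0.324) without the 3 arrays. These genes were low on the arrays left out, so their falls depend on that choice of arrays and the p-value is not an independent test. At 6 h amino acid enzymes were high in vector cells, while Atf4 RNA was below its 2 h level on replicates 1 and 2 and above that on replicate 3.

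**Figure D3:**
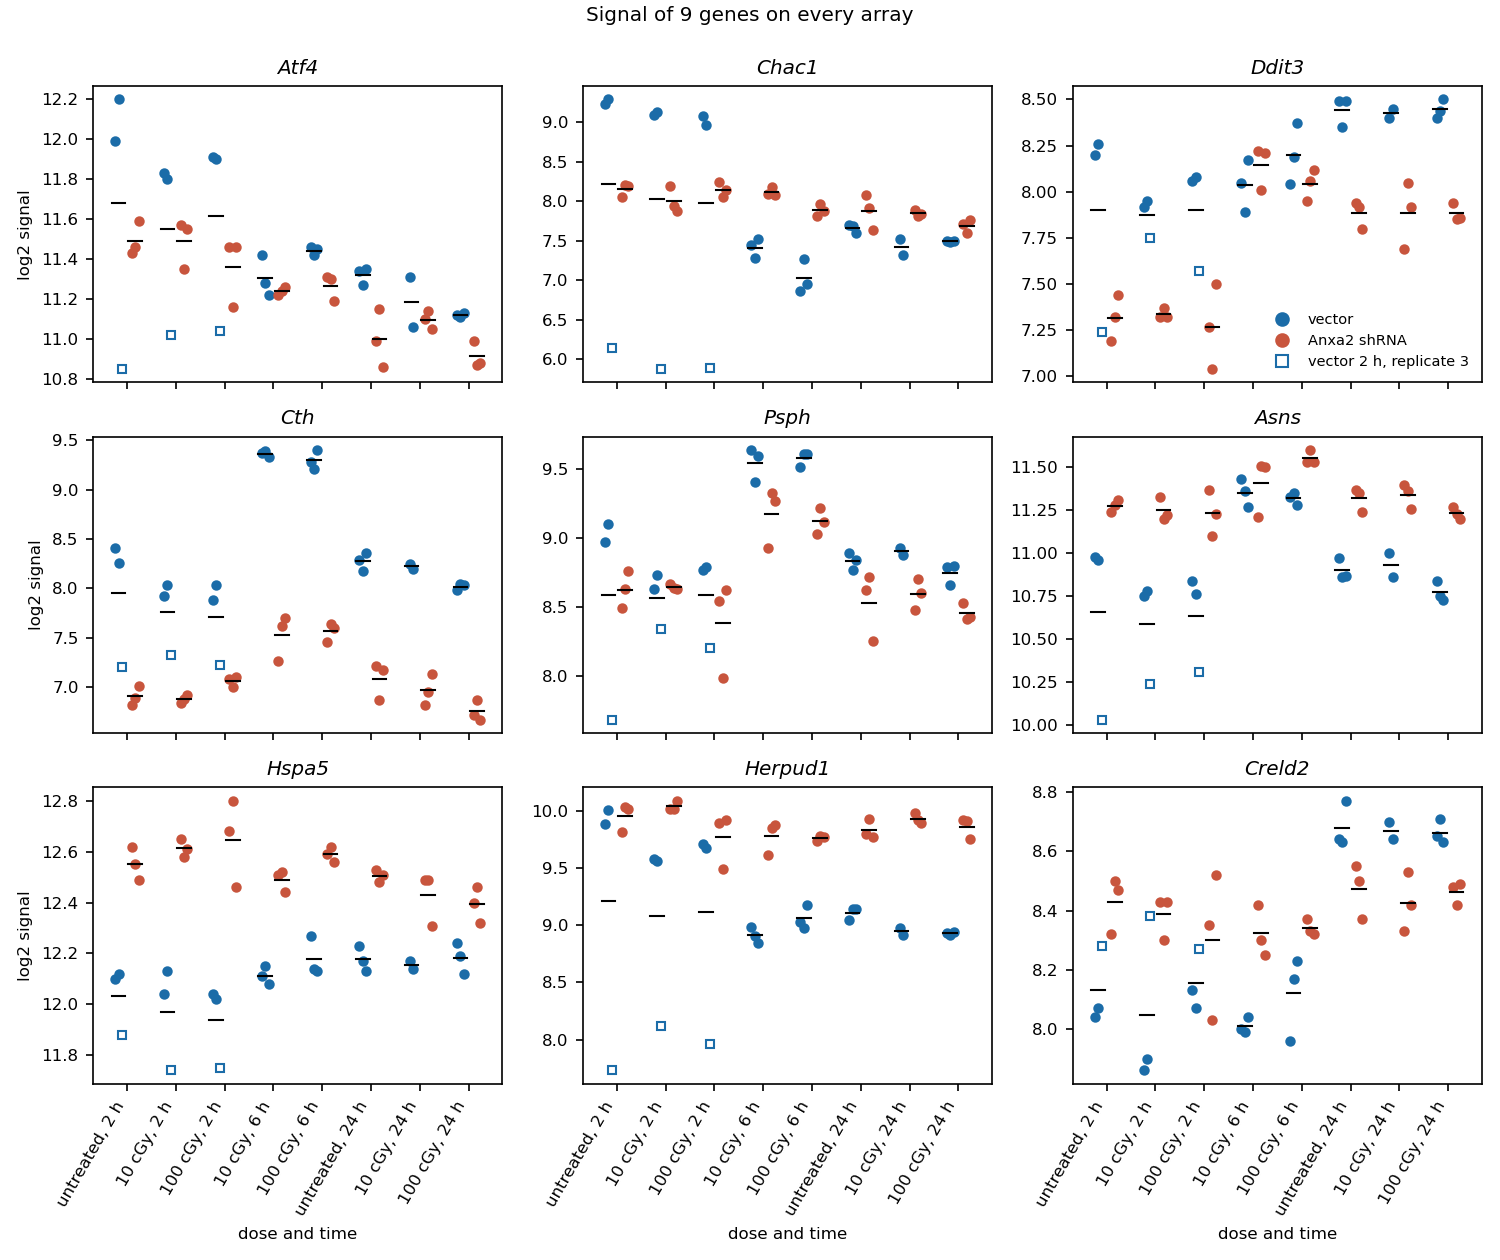
Log2 signal on each array (vertical axis) of Atf4, Chac1, Ddit3, Cth, Psph, Asns, Hspa5, Herpud1 and Creld2 by dose and time (horizontal axis) and line (colour); black bars are group means and open squares the 3 vector arrays that stand apart. Cth in vector cells lies at 9.21 to 9.40 at 6 h, above every other array, and Hspa5 lies at or above 12.31 on every shRNA array and at or below 12.27 on every vector array.

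In shRNA cells 10 of 37 members rose and 1 fell between 2 and 6 h, where 12.0% of all tested genes rose and 9.51% fell. 4 of 10 amino acid genes rose and 0 fell (median 0.23); without the 3 vector arrays, which narrows the shared error, 7 of 10 rose, and over all members 14 rose and 4 fell (14.4% and 11.2% of all tested genes). Cth read 7.26 to 7.70 at 6 h and 6.84 to 7.10 at 2 h, with no overlap, and rose by log2 0.57 ± 0.13 (adjusted p = 0.00164). Psph rose by 0.63 ± 0.14 (adjusted p = 0.00116) and Slc7a5 by 0.46 ± 0.13 (adjusted p = 0.00946). Asns, which was already at 11.10 to 11.37 at 2 h, differed by 0.24 (adjusted p = 0.105; 6.99e-04 without the 3 arrays).

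The member that rose most in shRNA cells was Ddit3, whose CHOP protein favours cell death under lasting ER stress. It read 7.32, 7.37 and 7.32 at 2 h after 10 cGy and 7.27, 7.04 and 7.50 after 100 cGy. At 6 h it read 8.22, 8.01 and 8.21, and 7.95, 8.06 and 8.12. The groups did not overlap, and the rise was 0.79 ± 0.11, or 1.73-fold (adjusted p = 1.34e-06). Atf5 rose by 0.47 ± 0.13 (adjusted p = 0.00714). Atf4 in the same cells differed by -0.17 ± 0.15 (adjusted p = 0.464; 0.0283 without the 3 arrays). Cebpb, which encodes a C/EBP partner of ATF4, fell by 0.31 ± 0.07 (adjusted p = 7.21e-04).

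Of the chaperone list, 3 of 15 genes rose between 2 and 6 h in vector cells, where 8.90% of all tested genes rose, and 2 of 15 in shRNA cells, where 12.0% did; 0 fell in either. With the 3 arrays left out, 2 rose and 1 (Herpud1, -0.65) fell in vector cells, and 2 rose and 1 (Xbp1) fell in shRNA cells. Dnajb9, the ER co-chaperone ERdj4 and an XBP1 target, read 7.69 to 8.07 at 6 h in vector cells against 6.90 to 7.45 at 2 h, and rose by 0.70 ± 0.07 (adjusted p = 4.52e-09; 0.66 without the 3 arrays). In shRNA cells it rose by 0.31 ± 0.07 (adjusted p = 0.00134). Syvn1, the ubiquitin ligase HRD1 of ER-associated degradation, rose by 0.47 ± 0.10 in vector (adjusted p = 6.48e-04; 0.51 without the 3 arrays) and 0.58 ± 0.10 in shRNA cells (adjusted p = 2.79e-05). Hspa5, the main ER chaperone BiP, rose by 0.19 in vector cells (adjusted p = 0.0267) and differed by -0.09 (adjusted p = 0.369) in shRNA cells. Its vector call was lost without the 3 arrays (0.09), without replicate 3 at 2 h of 10 cGy (0.14) or 100 cGy (0.15), and without replicate 2 at 6 h of 10 cGy (0.18) or replicate 1 of 100 cGy (0.17). Xbp1 differed by 0.36 (adjusted p = 0.0854) in vector and -0.36 (adjusted p = 0.0704) in shRNA cells. Without the 3 arrays the vector difference was 0.10 (adjusted p = 0.531) and the shRNA one was called lower (adjusted p = 0.00232). In vector cells it was called without replicate 2 at 2 h (0.45) or replicate 3 at 6 h (0.43) of 10 cGy, and in shRNA cells without replicate 3 at 6 h of 10 cGy (-0.41).

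The rise from 2 to 6 h differed between the lines for 6 members, 1 larger and 5 smaller in shRNA cells, where 1.34% and 1.51% of all tested genes were called. For Cth the difference of the rises was -1.03 ± 0.19 (adjusted p = 8.94e-04; -0.80 without the 3 arrays), and it kept its call when any 1 array was left out. Aldh18a1 (-0.48, adjusted p = 0.0192) kept its call under the same test. Psat1 (-0.36, adjusted p = 0.0199) lost its call without replicate 3 of 100 cGy vector cells at 2 h (-0.32). Dnajb9 (-0.39, adjusted p = 0.0242) lost it without replicate 2 of 100 cGy shRNA cells at 2 h or of 10 cGy vector cells at 6 h (-0.35 each). Ddit3 (0.56, adjusted p = 0.0396) and Xbp1 (-0.71, adjusted p = 0.0444) passed by little: 17 of the 24 fits with 1 array left out lost the Ddit3 call (0.50 to 0.57) and 16 lost the Xbp1 call (-0.74 to -0.57). The Xbp1 difference was -0.46 without the 3 arrays. Of the genes not called, Asns differed by -0.48 (adjusted p = 0.0705), Hspa5 by -0.28 (adjusted p = 0.0762) and Atf4 by 0.04 (adjusted p = 0.960). Without the 3 arrays together, the difference was called higher for Chac1 (1.77), Trib3 (0.74), Herpud1 (0.51), Ppp1r15a (0.43) and Atf4 (0.31) and lower for Asns (-0.32) as well, 6 members in each direction in all, where 2.37% of all tested genes were higher and 2.95% lower.

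**Figure D4:**
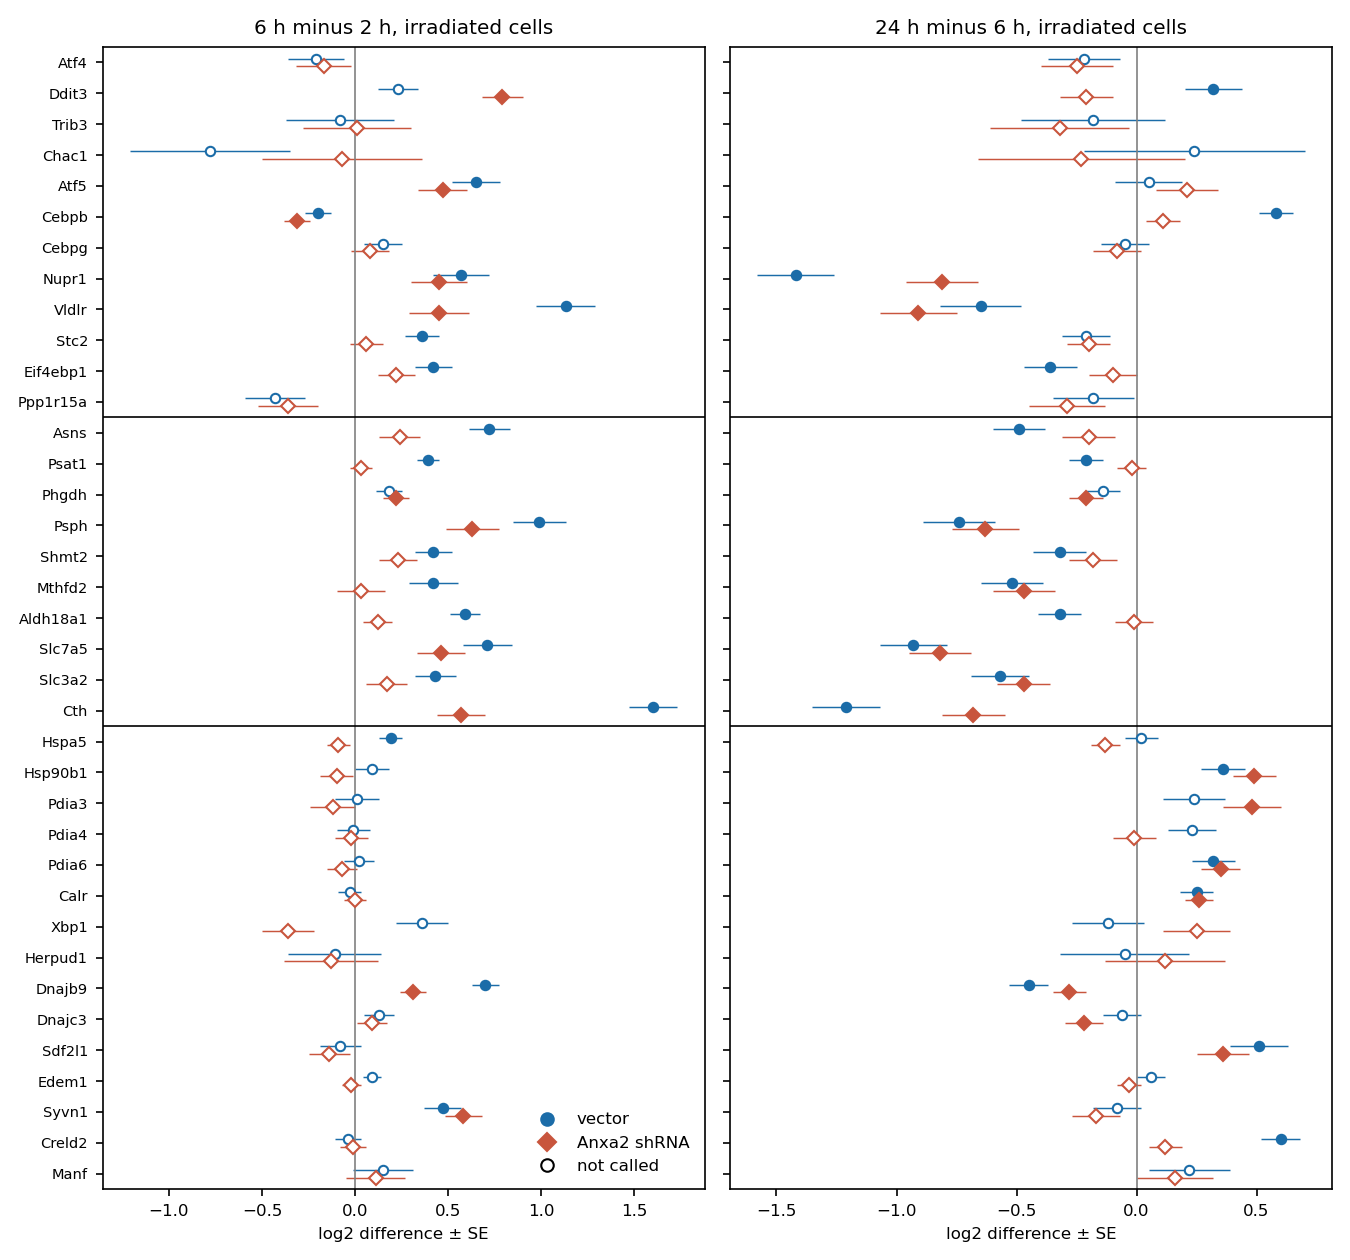
Log2 difference of each tested member (vertical axis, by list) between 6 and 2 h and between 24 and 6 h in irradiated cells (horizontal axis, log2), with vector and shRNA cells in separate colours, filled where called, and bars of 1 SE. Cth lies farthest right at 6 against 2 h in vector cells (1.60), and all 10 amino acid genes lie left of 0 at 24 against 6 h in both lines.

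Between 6 and 24 h the amino acid genes came down in both lines. In vector cells (5 arrays at 24 h, 6 at 6 h) 9 of 10 fell and 0 rose, with a median of -0.50; in shRNA cells (6 and 6 arrays) 6 of 10 fell and 0 rose, with a median of -0.34. Over all members, 7 rose and 13 fell in vector cells (22.4% and 16.5% of all tested genes) and 5 rose and 10 fell in shRNA cells (20.7% and 18.6%). In the fit without the 3 arrays 6 members rose and 17 fell in shRNA cells (22.4% and 20.5%). The rises to 6 h and these falls share the 6 h arrays, so they are not independent. Among irradiated cells, all 10 amino acid genes had their highest mean (over both doses) at 6 h in both lines, as did 29.0% of all tested genes in vector and 35.2% in shRNA cells.

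Nupr1 fell most in vector cells. It read 10.62 to 10.90 at 6 h and 9.37, 9.29, 9.29, 9.42 and 9.48 at 24 h, and fell by log2 1.42 ± 0.16, or 2.67-fold (adjusted p = 1.76e-09). In shRNA cells it fell by 0.81 ± 0.15 (adjusted p = 2.79e-05), from 10.61 to 10.93 at 6 h to 9.88 to 10.16 at 24 h. Cth fell by 1.21 ± 0.14 in vector (adjusted p = 9.18e-09) and 0.68 ± 0.13 in shRNA cells (adjusted p = 8.36e-05). Slc7a5 fell by 0.93 ± 0.14 (adjusted p = 8.69e-07) and 0.82 ± 0.13 (adjusted p = 3.35e-06), and Psph by 0.74 and 0.63. Vldlr fell by 0.65 in vector and 0.91 in shRNA cells, and Slc3a2 by 0.57 and 0.47. Asns fell by 0.49 ± 0.11 in vector cells (adjusted p = 5.40e-04) and differed by -0.20 (adjusted p = 0.143) in shRNA cells. Atf4 differed by -0.22 (adjusted p = 0.274) and -0.25 (adjusted p = 0.183), and the fit without the 3 arrays called it lower in both (adjusted p = 0.00398 and 8.28e-04).

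Of the chaperone genes, 5 of 15 rose and 1 fell over the same interval in vector cells, where 22.4% of all tested genes rose and 16.5% fell. In shRNA cells 5 rose and 2 fell, where 20.7% and 18.6% did, and 6 and 3 without the 3 arrays. Creld2, a secreted ER stress-induced protein with an ERSE upstream, read 7.96 to 8.23 at 6 h and 8.63 to 8.71 at 24 h in irradiated vector cells, with no overlap. It rose by 0.60 ± 0.08 in vector cells (adjusted p = 6.43e-08). In shRNA cells it read 8.25 to 8.42 and 8.33 to 8.53 and was not called, and the difference between the lines was -0.49 ± 0.11 (adjusted p = 0.00172). Sdf2l1, a subunit of the ER chaperone complex, rose by 0.51 ± 0.12 (adjusted p = 6.09e-04) in vector and 0.36 ± 0.11 (adjusted p = 0.00894) in shRNA cells. Hsp90b1, the ER HSP90 (GRP94), rose by 0.36 ± 0.09 (adjusted p = 0.00149) and 0.49 ± 0.09 (adjusted p = 1.66e-05). Pdia6, a disulfide isomerase, rose by 0.32 and 0.35, although another probe set gave -0.20 in shRNA cells, and the lectin chaperone Calr rose by 0.25 and 0.26. Pdia3, the isomerase that works with calreticulin, rose by 0.48 ± 0.12 in shRNA cells (adjusted p = 0.00134). Dnajb9 went the other way, and fell by 0.45 in vector and 0.28 in shRNA cells.

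10 of 15 chaperone genes were highest at 24 h among irradiated vector cells (41.9% of all tested genes) and 7 of 15 in shRNA cells (38.8%). Hspa5 differed by 0.02 (adjusted p = 0.840) in vector and -0.13 (adjusted p = 0.0947) in shRNA cells, and Xbp1 by -0.12 (adjusted p = 0.596) and 0.25 (adjusted p = 0.168).

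2 factors of the ATF4 list also differed in their course. Cebpb rose from 9.59 to 9.79 at 6 h to 10.20 to 10.34 at 24 h in vector cells, by 0.58 ± 0.07 (adjusted p = 2.12e-08), and was not called in shRNA cells; the difference between lines was -0.46 ± 0.10 (adjusted p = 0.00101). Ddit3 rose by 0.32 in vector cells (adjusted p = 0.0286) and differed by -0.21 (adjusted p = 0.130) in shRNA cells. The vector call was lost (0.28 to 0.33) without replicate 2 at 6 h or either replicate at 24 h of 10 cGy, or without replicate 1 at 6 h or replicate 3 at 24 h of 100 cGy. The difference between lines was -0.53 ± 0.16 (adjusted p = 0.0276). It lost its call (-0.51 to -0.48) without replicate 1 of 10 cGy shRNA cells at 24 h, or without vector replicate 1 at 6 h of 100 cGy, replicate 2 at 6 h of 10 cGy or replicate 3 at 24 h of 10 cGy. Cebpb, Creld2 and Ddit3 were the 3 members called lower in this difference and 0 were called higher, where 6.20% and 3.94% of all tested genes were. Asns differed by 0.29 (adjusted p = 0.264; 0.00826 without the 3 arrays), Xbp1 by 0.37 (adjusted p = 0.304), Hspa5 by -0.15 (adjusted p = 0.338) and Atf4 by -0.03 (adjusted p = 0.967).

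Untreated cells at 24 and 2 h give a time course without radiation. In vector cells 10 members were higher and 3 lower at 24 h (13.0% and 12.9% of all tested genes); without the 3 arrays 4 were higher and 9 lower (14.0% and 13.0%), and without the untreated one of these alone 4 and 8. Leaving out replicate 1 or 2 at 2 h, or replicate 1 or 3 at 24 h, left 1 member lower. Creld2 read 8.04, 8.07 and 8.28 at 2 h and 8.64, 8.63 and 8.77 at 24 h, and rose by 0.55 ± 0.10 (adjusted p = 1.06e-04; 0.63 without the 3 arrays). Nupr1 read 10.66, 10.72 and 9.29 at 2 h and 9.34, 9.27 and 9.28 at 24 h, and fell by 0.93 ± 0.21 (adjusted p = 8.24e-04; -1.39 without the 3 arrays). Hsp90b1 rose by 0.48 and Cebpb by 0.39. Ddit3 rose by 0.54 (adjusted p = 0.00818), but differed by 0.21 (adjusted p = 0.153) without the 3 arrays. Its call was also lost without replicate 3 at 2 h alone. Manf, an ER stress-induced secreted protein, was called higher by 0.67 (lost without replicate 3 at 2 h, 0.40, or 1 or 3 at 24 h, 0.66 and 0.49). Sdf2l1 was called higher by 0.49 (lost without replicate 1 or 2 at 2 h or 3 at 24 h, 0.28 to 0.47). Ppp1r15a (-0.65, adjusted p = 0.0316) and Slc7a5 (-0.50, adjusted p = 0.0439) were called lower, and at -1.04 and -0.64 without the 3 arrays. With 1 array left out, the Ppp1r15a call held only without replicate 3 at 2 h (the others gave -0.69 to -0.43), and that of Slc7a5 was lost without replicate 1 or 2 at 2 h or 1 or 3 at 24 h (-0.47 to -0.38). Atf5 was called higher by 0.57 (lost without the 3 arrays, 0.53, adjusted p = 0.0627, and without replicate 1 or 3 at 2 h or 2 at 24 h, 0.48 to 0.53).

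In untreated shRNA cells 1 member rose and 4 fell (10.1% and 9.14% of all tested genes), and 2 and 9 without the 3 arrays (12.7% and 11.2%). Ddit3 read 7.19, 7.32 and 7.44 at 2 h and 7.94, 7.92 and 7.80 at 24 h, and rose by 0.56 ± 0.16 (adjusted p = 0.00798). Mthfd2 fell by 0.64 ± 0.18 (adjusted p = 0.00868) and Cebpb by 0.37 ± 0.09 (adjusted p = 0.00372). Ppp1r15a (-0.69, adjusted p = 0.0293) and Slc7a5 (-0.58, adjusted p = 0.0221) were also called lower. The Ppp1r15a call was lost whichever of the 6 arrays was left out (-0.72 to -0.65), and that of Slc7a5 without replicate 1 or 3 at either time (-0.59 to -0.54), and leaving out any 1 of these 4 arrays left 2 members lower. Atf4 differed by -0.36 (adjusted p = 0.208) in vector and -0.49 (adjusted p = 0.0905) in shRNA cells, Asns by 0.25 and 0.04, Hspa5 by 0.14 and -0.05, and Xbp1 by 0.35 and -0.17, and none of these was called. When the 3 arrays were left out, the vector values were -0.07 for Asns, 0.06 for Hspa5 and 0.02 for Xbp1. In the vector arm Atf4 was called (-0.78) once replicate 3 at 2 h was left out. Its missed call in shRNA cells came with the wide shared error. In the fit without the 3 arrays, 6 of 12 ATF4 list genes were lower and 1 higher in shRNA cells, where 11.2% and 12.7% of all tested genes were.

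Time moved 2 members differently in the untreated lines, both called lower in shRNA relative to vector cells, where 2.72% of all tested genes were (2.97% higher). For Cebpb the difference was -0.76 ± 0.13 (adjusted p = 1.92e-04). For Creld2 it was -0.51 ± 0.15 (adjusted p = 0.0339). The Creld2 call was lost (-0.49 to -0.46) without shRNA replicate 2 or 3 at 2 h or 3 at 24 h, or vector replicate 1 or 2 at 2 h or 3 at 24 h. The difference was -0.52 (adjusted p = 0.336) for Xbp1, -0.20 for Asns, -0.19 for Hspa5, -0.13 for Atf4 and 0.02 for Ddit3, none of them called. In the fit without the 3 arrays 4 members were higher and 2 lower (3.37% and 3.22% of all tested genes), the added ones being Chac1 (1.32), Nupr1 (0.96), Herpud1 (0.71) and Trib3 (0.49).

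Between the lines, Hspa5, Calr and Edem1 were higher and Cth was lower in shRNA cells in all 3 conditions compared. Ppp1r15a of the ATF4 list and Slc7a5 of the amino acid list were also called higher in all 3. Their untreated calls, and 1 of Edem1, were lost in some fits without 1 array. In untreated cells at 2 h, 14 members were higher and 3 lower in shRNA cells (16.3% and 17.5% of all tested genes), 9 and 1 of them from the chaperone list, whose median difference was 0.43 against 0.02 over all tested genes. Without the 3 arrays, 11 members were higher and 7 lower (16.2% and 17.2%), with 8 and 1 from the chaperone list. Without shRNA replicate 3, or vector replicate 3, 9 were higher, and without vector replicate 3 there were 5 lower. At 6 h in irradiated cells 13 were higher and 7 lower (25.3% and 24.5%), with 10 and 1 from the chaperone list (median 0.29), and 1 and 5 from the amino acid list (median -0.27). In the untreated groups at 24 h, 9 were higher and 3 lower (19.4% and 19.9%), with 4 and 0 from the chaperone list; 12 and 8 were called without the 3 arrays (21.8% of all tested genes in each direction). Leaving out 1 array at 24 h left 4 to 8 higher: 4 without shRNA replicate 1 or 2, and 5 without vector replicate 2 or 3.

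Hspa5 (chr2:34772090-34776529) separated the lines on every array. Vector arrays read 11.74 to 12.27 and shRNA arrays 12.31 to 12.80. It was higher in shRNA cells by 0.52 ± 0.09 untreated at 2 h (adjusted p = 1.08e-05), 0.39 ± 0.06 at 6 h (adjusted p = 1.57e-06) and 0.33 ± 0.09 untreated at 24 h (adjusted p = 0.00230). Calr was higher by 0.43, 0.36 and 0.48 in the same order, and Edem1, which delivers misfolded glycoproteins for degradation, by 0.41, 0.42 and 0.26 (the last call was lost without shRNA replicate 1 at 24 h, 0.18). Sdf2l1 was higher by 0.66 ± 0.16 at 2 h (adjusted p = 0.00105) and 0.53 ± 0.11 at 6 h (adjusted p = 1.23e-04), and differed by 0.38 (adjusted p = 0.0555) at 24 h. Pdia3 was higher by 0.55 at 2 h (adjusted p = 0.0101), but its call was lost without shRNA replicate 3 (0.44). Manf was higher by 0.60 at 2 h (adjusted p = 0.0319), with its call lost without shRNA replicate 2 (0.60) or 3 (0.45) or vector replicate 3 (0.33). Dnajb9 was lower in shRNA cells, by -0.36 ± 0.10 at 2 h (adjusted p = 0.00508) and -0.48 ± 0.07 at 6 h (adjusted p = 5.28e-07). Xbp1 differed by 0.38, -0.24 and -0.13 and was not called. Its 2 h difference was 0.05 without vector replicate 3 and was called without vector replicate 2 (0.57), and the 6 h difference was called in the fit without the 3 arrays (adjusted p = 0.0242).

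Herpud1 is the chaperone list gene that the 3 arrays touched most. At 6 h after irradiation it read 8.85 to 9.18 in vector and 9.62 to 9.88 in shRNA cells, and was higher in shRNA cells by 0.78 ± 0.25 (adjusted p = 0.00975). Untreated at 24 h it read 9.05, 9.14 and 9.14 against 9.80, 9.93 and 9.77. That difference, 0.72, did not pass with the wide shared error (adjusted p = 0.109) and passed without the 3 arrays (adjusted p = 1.12e-08). Untreated at 2 h, vector replicates 1 and 2 (9.89 and 10.01) were level with shRNA cells (9.82, 10.04 and 10.02).

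**Figure D5:**
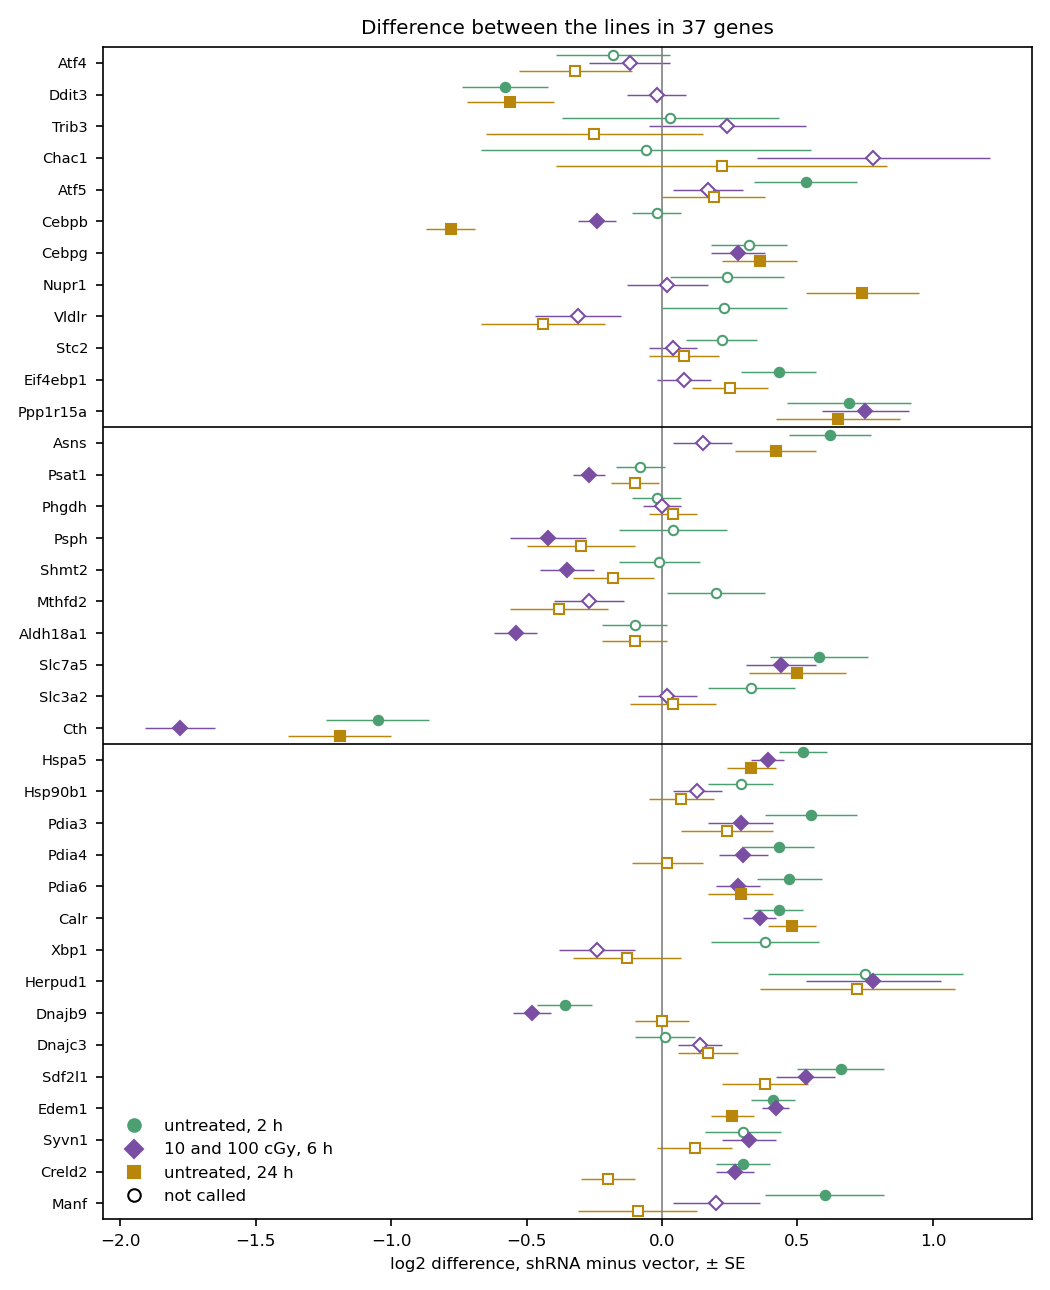
Log2 difference of each tested member between shRNA and vector cells (horizontal axis; right of 0 is higher in shRNA cells) in untreated cells at 2 h, irradiated cells at 6 h and untreated cells at 24 h, by list (vertical axis), filled where called, with bars of 1 SE. Cth lies farthest left in all 3 comparisons (-1.05, -1.78 and -1.19). Hspa5, Calr, Edem1, Ppp1r15a and Slc7a5 are filled to the right in all 3.

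Among amino acid genes the largest line difference was in Cth. Its lowest vector reading outside the 3 arrays was 7.88, and its highest shRNA reading was 7.70. It was lower in shRNA cells by log2 -1.05 ± 0.19 untreated at 2 h (adjusted p = 2.95e-05; -1.43 without the 3 arrays), -1.78 ± 0.13 at 6 h (3.45-fold, adjusted p = 5.67e-14) and -1.19 ± 0.19 untreated at 24 h (adjusted p = 3.14e-06). At 6 h Aldh18a1 (-0.54), Shmt2 (-0.35) and Psat1 (-0.27) were lower too. So was Psph (-0.42, adjusted p = 0.0152), with its call lost without replicate 1 of 10 cGy shRNA cells (-0.35). Asns and Slc7a5 went the other way. Asns was higher in shRNA cells by 0.62 ± 0.15 at 2 h (adjusted p = 0.00101), or 0.31 without the 3 arrays, and by 0.42 at 24 h (adjusted p = 0.0220), where the call was lost without shRNA replicate 1 or 2 or vector replicate 2 or 3 (0.40 to 0.41). At 6 h Asns differed by 0.15 (adjusted p = 0.261). Slc7a5 was higher by 0.58 ± 0.18 (adjusted p = 0.0124), 0.44 ± 0.13 (adjusted p = 0.00524) and 0.50 ± 0.18 (adjusted p = 0.0295). Its calls were lost without vector replicate 3 at 2 h (0.43), and at 24 h without shRNA replicate 2 or 3 or vector replicate 1 or 3 (0.43 to 0.49).

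In the ATF4 list Ppp1r15a was called higher in shRNA cells in all 3 conditions. Both untreated calls were lost in some fits without 1 array, though at 24 h the difference itself hardly moved. At 6 h it read 6.96 to 7.16 in vector and 7.67 to 7.94 in shRNA cells, higher by 0.75 ± 0.16 (adjusted p = 1.74e-04). Untreated, it was higher by 0.69 at 2 h (adjusted p = 0.0176; lost without shRNA replicate 2, 0.65, or vector replicate 3, 0.31) and by 0.65 at 24 h (adjusted p = 0.0214; lost without shRNA replicate 1 or 2 or vector replicate 2 or 3, 0.63 to 0.64). Cebpb was lower in untreated shRNA cells at 24 h, at 9.54, 9.56 and 9.44 against 10.33, 10.36 and 10.18, by -0.78 ± 0.09 (adjusted p = 1.47e-08). Nupr1 was higher at 24 h, at 10.02, 10.07 and 10.01 against 9.34, 9.27 and 9.28, by 0.74 ± 0.21 (adjusted p = 0.00414). Cebpg, another C/EBP factor, was called higher at 24 h (0.36, adjusted p = 0.0353), a call that was lost whichever of the 6 arrays was left out (0.31 to 0.38).

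Ddit3 was lower in untreated shRNA cells by -0.58 ± 0.16 at 2 h (adjusted p = 0.00318; -0.91 without the 3 arrays; call lost without vector replicate 2, -0.40) and -0.56 ± 0.16 at 24 h (adjusted p = 0.00362), while at 6 h it differed by -0.02 (adjusted p = 0.876). Atf4 differed by -0.18 (adjusted p = 0.539), -0.12 (adjusted p = 0.512) and -0.32 (adjusted p = 0.235) in the same order of conditions as Hspa5. Untreated at 2 h, without vector replicate 3, it was called lower in shRNA cells (-0.60). In the fit without the 3 arrays, Chac1 was lower in shRNA cells at 2 h (-1.10, adjusted p = 2.77e-10) and higher at 6 h (0.78, adjusted p = 7.05e-12), and with them neither passed (-0.06 and 0.78).

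No dose difference was called for any member. In 11 comparisons of 10 or 100 cGy with untreated cells at 2 or 24 h, of 100 with 10 cGy at 6 h, and of the lines' responses at 24 h, limma called 0 of 37 members in either direction, and at an unadjusted p under 0.05 there were 0 or 1 members in each. Of all tested genes, 0.0461% (vector) and 0.0231% (shRNA) were called for 100 cGy at 2 h, and 0.0922%, 0.161% and 0.0807% for 100 cGy at 24 h in vector cells, in shRNA cells and for their difference. The background was 0% (vector) and 0.0115% (shRNA) for 10 cGy at 2 h, 0.0115% and 0% for 10 cGy at 24 h, and 0.0922% and 0% for 100 against 10 cGy at 6 h. Over the 11 comparisons the differences of Atf4 lay between -0.20 and 0.14, those of Ddit3 between -0.11 and 0.16, of Asns between -0.13 and 0.15, of Hspa5 between -0.12 and 0.10 and of Xbp1 between -0.17 and 0.32. The smallest adjusted p was that of Dnajb9 at 2 h after 100 cGy in vector cells. It read 6.95, 6.90 and 6.90 against 7.43, 7.16 and 7.52 in untreated cells, lower by -0.46 ± 0.10 (adjusted p = 0.0593). Without replicate 2 of the untreated group Dnajb9 was called lower there (-0.56, adjusted p = 0.00980), as it was with a replicate block (-0.46, adjusted p = 0.0384). The 95% intervals of the 100 cGy difference at 2 h in vector cells reached 0.30 to either side at the median gene and 1.24 for Chac1. Dose effects within them could be missed. The intervals are not adjusted for the number of genes, so larger differences could miss the threshold too, as that of Dnajb9 did.

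Lists of genes of the same pathways outside the 39 were fixed with the design, when earlier results of these data were known. These genes moved in part with the amino acid genes. Their counts at 6 against 2 h stand beside 8.90% higher and 7.82% lower of all tested genes in vector cells and 12.0% and 9.51% in shRNA cells. Of 18 tested aminoacyl-tRNA synthetases, which charge tRNAs with amino acids and are ATF4 targets in part, 12 rose and 0 fell between 2 and 6 h in vector cells (median 0.42), among them Gars (0.52) and Wars (0.57). Without the 3 arrays 11 rose and 0 fell (median 0.35), with Gars at 0.45 and Wars at 0.49. In shRNA cells 8 of 18 rose and 0 fell (median 0.20). Between 6 and 24 h, 10 of 18 fell in vector and 9 of 18 in shRNA cells, and 0 rose, where 16.5% and 18.6% of all tested genes fell.

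Of 17 other ATF4 targets, 5 rose and 2 fell in vector cells and 6 rose and 3 fell in shRNA cells between 2 and 6 h. With the 3 arrays left out, 5 rose and 5 fell in vector cells and 7 rose and 3 fell in shRNA cells. Gpt2, which makes alanine in mitochondria, rose by 1.40 ± 0.16 (adjusted p = 3.99e-08) in vector and 0.85 ± 0.16 (adjusted p = 1.23e-04) in shRNA cells. Slc6a9, a glycine transporter, rose by 0.97 ± 0.08 in vector cells (adjusted p = 1.27e-10) and 0.31 in shRNA cells (adjusted p = 0.00571). Sesn2, an inhibitor of mTORC1 signalling, fell by 0.76 in vector cells (adjusted p = 0.0113), and by 1.25 without the 3 arrays. In shRNA cells it differed by -0.21 (adjusted p = 0.552). Atf3, a stress-induced factor, fell by 0.98 ± 0.14 (adjusted p = 1.46e-06) in shRNA cells, and Vegfa fell by 2.24 ± 0.33 (adjusted p = 3.72e-06). In vector cells these 2 genes differed by -0.37 (adjusted p = 0.0577) and -0.58 (adjusted p = 0.252). Without the 3 arrays both were called lower in vector cells too (-0.62 and -1.37).

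Of 12 sensors and eIF2 regulators, 3 rose in vector and 2 in shRNA cells between 2 and 6 h and 0 fell; without the 3 arrays it was 4 and 2, and 1 fell in each line. Eif2ak3, the ER sensor kinase PERK, rose by 0.62 ± 0.13 (adjusted p = 8.73e-04; 0.91 without the 3 arrays) in vector and 0.50 ± 0.13 (adjusted p = 0.00539) in shRNA cells. Of 34 other ER folding and degradation genes, 9 rose and 1 fell in vector cells (9 and 0 without the 3 arrays) and 6 rose and 0 fell in shRNA cells. Ero1a, the oxidase that renews disulfide isomerases, rose by 0.81 ± 0.09 in vector (adjusted p = 1.77e-08) and 0.36 in shRNA cells (adjusted p = 0.00242). Between the lines at 6 h, 9 of these 34 were higher and 5 lower in shRNA cells, shares of 26.5% and 14.7% where 25.3% and 24.5% of all tested genes were called. Pdia5, a disulfide isomerase, was higher by 1.12 ± 0.11 (adjusted p = 2.41e-11), and Wfs1, an ER membrane protein, was lower by -0.82 ± 0.09 (adjusted p = 1.14e-09). Gpt2 was lower in shRNA cells at 6 h by -1.10 ± 0.16 (adjusted p = 3.39e-07), as Cth was.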

How the data were processed

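Signals of 22690 probe sets on 47 arrays were used as the authors deposited them, as log2 values from RMA per the submitters' processing notes (range 1.84 to 14.03); the RMA version and array model are not given in the sources used here. RNA was isolated with RNeasy columns and labelled by a one-cycle kit, per the labels' protocols. 64 control probe sets, 691 with several gene symbols and 1555 with none were left out, leaving 20380. Of the 12393 genes, the 30% with the lowest mean were not tested.

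A single limma fit (version 3.58.1, R 4.3.3) of 16 group means to all arrays gave 23 comparisons, with empirical Bayes variances (31 residual, 5.68 prior degrees of freedom) and two-sided p-values adjusted by Benjamini-Hochberg over 8675 genes; calls are at 0.05. Irradiated groups were averaged over both doses for the time comparisons and the line comparison at 6 h. The script was checked on simulated data.

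Members, lists and comparisons were chosen with earlier results of these data known. Any member may be named; per comparison, values are given for up to 6 called members in each direction with the largest change, and always for Atf4, Ddit3, Asns, Hspa5 and Xbp1. Alternatives were the mean of probe sets, no filter, array median centring, only the compared groups, leaving out arrays and a replicate block.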

Additional observations from a re-analysis of the deposited data

Results flagged for a closer look

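Differences between the lines in their change over time passed the test of the difference itself for 11 gene and comparison pairs. All are log2 differences, shRNA less vector, by limma with Benjamini-Hochberg adjustment. For the change from 2 to 24 h in untreated cells they were Cebpb (-0.76 ± 0.13 SE, adjusted p = 1.92e-04) and Creld2 (-0.51 ± 0.15, adjusted p = 0.0339). In both genes untreated vector cells rose while shRNA cells fell (Cebpb) or were not called (Creld2).

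For the change from 2 to 6 h in irradiated cells they were Cth (-1.03 ± 0.19, adjusted p = 8.94e-04), Aldh18a1 (-0.48 ± 0.12, adjusted p = 0.0192), Psat1 (-0.36 ± 0.09, adjusted p = 0.0199), Dnajb9 (-0.39 ± 0.10, adjusted p = 0.0242), Xbp1 (-0.71 ± 0.20, adjusted p = 0.0444) and Ddit3 (0.56 ± 0.16, adjusted p = 0.0396). All 6 involve the 2 h vector groups with the arrays that stand apart, and all 6 were also called without those arrays, at -0.80, -0.34, -0.27, -0.35, -0.46 and 0.67.

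For the change from 6 to 24 h they were Cebpb (-0.46 ± 0.10, adjusted p = 0.00101), Creld2 (-0.49 ± 0.11, adjusted p = 0.00172) and Ddit3 (-0.53 ± 0.16, adjusted p = 0.0276). These groups hold none of the arrays that stand apart.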

How the results depend on the processing

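Of the values of single genes under alternatives, 3057 kept direction and side of the threshold, 154 lost the call, 63 gained it and 0 reversed. Counts of called members are given where they moved by more than 1.5 times; the cause was not tested. When the fit held only the compared groups, the line comparison untreated at 2 h gave 8 higher and 1 lower, and at 24 h 6 lower; untreated 24 against 2 h gave 3 higher and 0 lower in vector and 8 lower in shRNA cells, with 1 lower for their difference. With the same restriction, 6 against 2 h gave 0 lower in vector, 3 lower in shRNA cells and 2 lower for the difference, and 24 against 6 h gave 11 higher in vector, 17 lower in shRNA cells and 4 higher for the difference. Without the 3 vector arrays, the line comparisons gave 7 lower at 2 h and 8 lower at 24 h; untreated time gave 4 higher and 9 lower (vector), 2 and 9 (shRNA) and 4 higher (difference); 6 against 2 h gave 6 lower (vector), 4 lower (shRNA) and 6 higher (difference); and 24 against 6 h gave 17 lower (shRNA) and 4 higher (difference), while the dose comparisons gave 0. Without the 4 arrays with the highest Gapdh difference, the line comparisons gave 9 higher at 2 h and 5 lower at 24 h, untreated time 6 higher and 8 lower (vector), 2 and 7 (shRNA) and 1 higher (difference), 6 against 2 h 2 lower in each line, and 24 against 6 h 3 higher for the difference. The mean of probe sets gave 3 higher for untreated time in shRNA and 0 lower for 6 against 2 h in vector cells. With no filter, 0 were higher in the 6 against 2 h difference. Centring each array on its median moved no count by more than 1.5 times.

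Leaving out 1 array gave, as ranges of members higher and lower: lines untreated 2 h 9 to 18 and 2 to 5, untreated 24 h 4 to 8 and 3 to 3, 6 h 11 to 13 and 6 to 7; untreated time 4 to 9 and 1 to 8 (vector), 1 to 1 and 2 to 3 (shRNA), 0 to 1 and 1 to 2 (difference); 6 against 2 h 15 to 18 and 0 to 3, 7 to 10 and 1 to 2, 0 to 1 and 3 to 7; 24 against 6 h 6 to 8 and 12 to 14, 5 to 6 and 8 to 11, 0 to 1 and 2 to 3. In the dose comparisons it gave 0, except 0 to 1 lower for 100 cGy at 2 h in vector cells.

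The labels do not say what replicate numbers share, and they were not taken to pair samples: every same-number correlation of deviations was over 0.1 in vector cells at 24 h (7 of 7), but 8 of 9 were in vector cells at 2 h, 0 of 3 at 6 h, and 5 of 9, 2 of 3 and 5 of 9 in shRNA cells at 2, 6 and 24 h. A replicate block, fitted within line, across lines or within line and time as each comparison allowed (the first and second kind chosen after seeing the data), gave 2 higher for untreated time in shRNA cells, 2 lower (vector) and 3 lower (shRNA) for 6 against 2 h, and 1 lower for 100 cGy at 2 h in vector cells; no other count moved by more than 1.5 times. In vector cells at 2 h the same-number correlations ran from 0.0769 to 0.720, against a mean of -0.173 for other pairs. The main p-values treat these arrays as separate samples, which they may not be. Precision is limited by 3 or 2 arrays a group and by the wide spread of Chac1, Trib3, Herpud1 and Atf4 at 2 h.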
